A study of Mus musculus with 6 samples.

Results

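The genes described here are the 6 interferon regulatory factor genes Irf1, Irf2, Irf3, Irf4, Irf5 and Irf7, taken by gene name from the deposited annotation of the mouse genome, with 1 gene identifier for each. They are 6 of the 25032 genes with a read, and all 6 were among the 13199 genes tested. Poly(A)-selected RNA was sequenced from BV2, a mouse microglial cell line that was immortalised in culture (microglia are the macrophages of the brain). There were 3 libraries labelled as overexpressing GFP, the control protein, and 3 labelled as overexpressing TDP43-NLS, a form of the RNA-binding protein TDP-43 whose nuclear localisation signal is mutated according to the series' design text. All libraries came from the same cell line, and the labels give neither the promoter of the constructs, nor the time of expression, nor whether the replicates were separate cultures. Every p-value therefore measures the spread between these libraries, which may be technical. GFP replicates 1 and 3 differed by 1.20 times the variance that read sampling alone would give. GFP replicate 2 differed from them by 7.24 and 7.27 times that variance, and pairs of TDP43-NLS libraries differed by 1.87 to 2.73 times. Why the pairs differ in this was not tested. By its title the series concerns necroptosis, a lytic form of cell death, in microglia.

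Interferon regulatory factors are transcription factors that bind DNA through a tryptophan-rich domain at their amino terminus, at elements called interferon-stimulated response elements. Irf3 and Irf7 proteins wait in the cytoplasm until the kinases Tbk1 and Ikbke phosphorylate them downstream of sensors of foreign nucleic acid, and they then switch on type I interferon genes. Irf1 is an activator that interferon gamma and NF-kB induce, and Irf2 binds the same sites and mostly represses them. Irf5 drives inflammatory cytokine genes downstream of the Toll-like receptor adaptor Myd88, and Irf4 competes with Irf5 for Myd88 and is linked to alternative activation of macrophages. Much of this control acts on the proteins, which RNA counts do not measure.

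The libraries held 15062131 to 18005592 counted reads. GFP replicate 2 stood apart from the other GFP libraries on the second principal component, which held 5.18% of the variance, and it was the highest or the lowest GFP library for 6 of the 6 members, against 78.8% of all tested genes. The endogenous gene of TDP-43, Tardbp, counted 7229, 7160 and 8154 reads under GFP and 5671, 6506 and 6633 under TDP43-NLS (log2 fold change -0.26, standard error 0.05), so it was lower, not higher, in the libraries labelled as overexpressing it. Whether reads of the construct count towards Tardbp is not given, and directions below are those of the libraries so labelled. Of 11 microglial and macrophage markers 10 had a mean of at least 1 CPM (the read count scaled to library size, with TMM factors), and their summed level was 2163 to 2218 CPM in the GFP libraries and 2204 to 2253 CPM in the others. The homeostatic microglial markers Tmem119 and P2ry12 were low, at 2.19 and 1.27 CPM under GFP and 3.79 and 0.261 CPM under TDP43-NLS. None of the 4 neuronal markers was found among genes with a read, the B cell markers summed to at most 0.606 CPM in any library, and the 4 plasmacytoid dendritic cell markers summed to 35.6 to 44.4 CPM in the GFP libraries and 42.7 to 46.1 CPM in the others. Nearly all of that sum was Tcf4, at 39.4 and 44.3 CPM, which other cell types also express, while Siglech, Ccr9 and Flt3 had at most 6 reads in a group, with Siglech at 0 under TDP43-NLS. The part of these markers in the results was not tested.

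The regulatory sequence at the start of the members is shown because the family's own elements differ among them. In the 250 bases before each RefSeq start on GRCm38.p6, read on both strands, 3 elements are described: the core of the interferon-stimulated response element (GAAA, any 2 bases, GAAA), the gamma-activated element to which STAT proteins bind (TTCNNNGAA), and the NF-kB consensus. They occur in 2.98%, 7.02% and 7.25% of all 32851 such windows. Irf1 and Irf2 carry matches, and Irf7, whose RNA changed most, carries none of the 3. In these lines capitals mark the matched elements.
Irf1 (chr11:53769764-53770013, plus strand): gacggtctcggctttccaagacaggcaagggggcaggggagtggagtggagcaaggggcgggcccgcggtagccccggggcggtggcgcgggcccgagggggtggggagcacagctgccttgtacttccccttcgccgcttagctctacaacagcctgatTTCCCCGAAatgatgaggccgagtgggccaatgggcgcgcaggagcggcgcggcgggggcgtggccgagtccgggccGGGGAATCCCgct
Irf2 (chr8:46739495-46739744, plus strand): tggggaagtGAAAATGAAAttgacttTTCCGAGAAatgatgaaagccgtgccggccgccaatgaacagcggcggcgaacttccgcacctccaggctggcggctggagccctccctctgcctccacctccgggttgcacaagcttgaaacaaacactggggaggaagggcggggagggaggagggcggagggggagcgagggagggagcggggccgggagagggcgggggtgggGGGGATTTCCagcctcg
Irf7 (chr7:141266425-141266674, minus strand): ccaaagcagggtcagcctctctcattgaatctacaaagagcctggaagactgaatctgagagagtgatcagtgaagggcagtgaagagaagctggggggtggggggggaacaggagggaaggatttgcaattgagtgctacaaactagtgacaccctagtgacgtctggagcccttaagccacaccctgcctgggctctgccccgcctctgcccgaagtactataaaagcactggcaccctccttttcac
The Irf1 window holds a gamma-activated element 90 to 82 bases before the start and an NF-kB consensus 13 to 4 bases before it, which reads as a match on both strands. The Irf2 window holds the response element core, 241 to 232 bases before the start, followed by a gamma-activated element and, close to the start, an NF-kB consensus. Irf1 has another RefSeq start, and the window of that start held no match, nor did the windows of Irf3, Irf4 and Irf5. No match says only that these letters are not in these windows. The matches are a description of sequence and no measure of binding.

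Among the 6 genes, Irf7, Irf4 and Irf3 rose in the libraries labelled TDP43-NLS, and Irf1, Irf2 and Irf5 did not pass the test. Irf7 rose 2.74-fold, Irf4 2.66-fold and Irf3 1.36-fold. That is 3 of 6 called, where 57.5% of all tested genes were called, and 3 of 6 higher, where 29.3% of all tested genes were called higher. For 3 of the 6 genes the groups did not overlap in CPM, against 63.2% of all tested genes, so the count of called members was near the background. A log2 fold change of at least 1 with a call was found in 2 of 6, Irf7 and Irf4, against 6.33% of all tested genes. The genes differed in size of change: a larger absolute log2 fold change was seen in 5.71% of tested genes for Irf7, in 5.93% for Irf4, in 31.0% for Irf3 and in 96.9% for Irf2. In bulk RNA, a change in the number of cells that express a gene and a change in RNA per cell cannot be told apart.

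**Figure D1:**
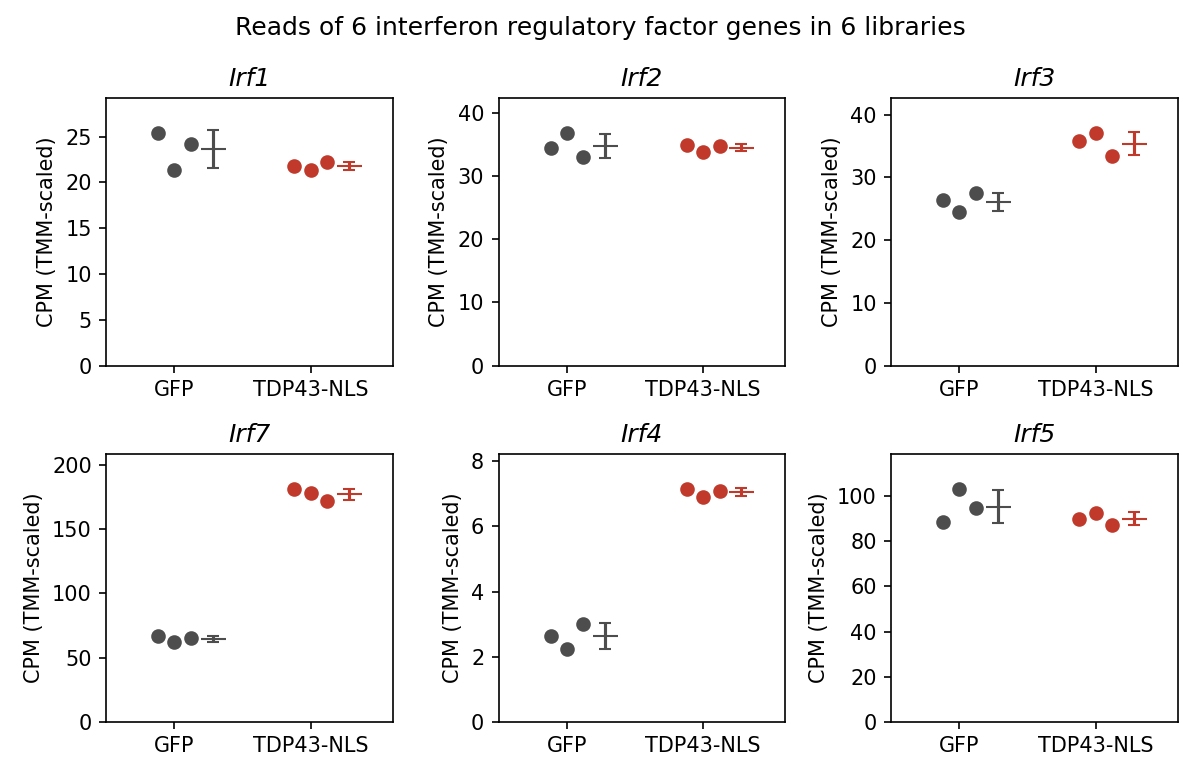
CPM after TMM scaling (vertical axes, from 0) for each of the 6 genes in the 3 GFP libraries (grey) and the 3 TDP43-NLS libraries (red); points are libraries in replicate order, and the bar beside them is the mean with its SD. The groups separate for Irf3, Irf7 and Irf4 and overlap for Irf1, Irf2 and Irf5.

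Irf7 (ENSMUSG00000025498, chromosome 7, 140842619 to 140846394, minus strand, GRCm39), the factor that amplifies type I interferon production, had the largest change of the 6. It counted 1037, 1053 and 1143 reads under GFP and 2690, 3170 and 2995 under TDP43-NLS. After scaling this was 66.7, 62.2 and 65.1 CPM against 181, 178 and 172 CPM. The lowest TDP43-NLS library was far above the highest GFP library, and the libraries of each group lay close together. The means were 64.7 ± 2.26 and 177 ± 4.52 CPM (SD over 3 libraries). By edgeR's quasi-likelihood test Irf7 was 2.74-fold higher (95% interval 2.56 to 2.93, log2 fold change 1.45, standard error 0.05) with an adjusted p = 2.75e-11, in 3 of 3 libraries. Its 3' end overlaps the 3' end of Phrf1, a gene on the other strand, which had 112 ± 6.89 and 120 ± 3.20 CPM and was not called (log2 fold change 0.11, adjusted p = 0.0831).

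Irf3 (ENSMUSG00000003184, chromosome 7, 44647072 to 44652272, plus strand), the partner of Irf7 in the first wave of interferon induction, rose by less. Its reads were 410, 415 and 482 under GFP and 531, 661 and 580 under TDP43-NLS, or 26.4, 24.5 and 27.4 CPM against 35.8, 37.1 and 33.4 CPM. The groups did not overlap, with a gap between the highest GFP library and the lowest TDP43-NLS library that was wider than the range of either group. The log2 fold change was 0.44 (standard error 0.07, 95% interval 0.30 to 0.58 on the log2 scale, fold 1.36, adjusted p = 7.47e-05). Tested for exceeding a log2 fold change of 0.5, Irf3 was no longer called (adjusted p = 1). Irf3 shares its start region with Bcl2l12, on the other strand, which had 3.35 ± 0.286 and 3.30 ± 0.335 CPM (SD over 3 libraries per group) and was not called (log2 fold change -0.02, adjusted p = 0.933). Scaf1, whose end lies 99 bases beyond Irf3, was not called either (log2 fold change -0.01, adjusted p = 0.952).

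Because Irf7 and Irf3 act together, their ratio within a library is of use, and it does not depend on how libraries are scaled to each other. In FPKM, which is per length, Irf7 stood at 2.31, 2.31 and 2.16 times Irf3 under GFP and at 4.62, 4.37 and 4.71 times Irf3 under TDP43-NLS. The ratio was thus higher in every TDP43-NLS library than in every GFP library, by a factor of 2.02 between the means.

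Irf4 (ENSMUSG00000021356, chromosome 13, 30933209 to 30950959, plus strand), a factor best known from lymphocytes and from alternatively activated macrophages, was the lowest of the 6 genes in both groups and still rose. It counted 41, 38 and 53 reads under GFP and 106, 123 and 123 under TDP43-NLS, or 2.64, 2.25 and 3.02 CPM against 7.14, 6.90 and 7.08 CPM. Every TDP43-NLS library was above every GFP library by more than the range within a group. The log2 fold change was 1.41 (standard error 0.14, fold 2.66, 95% interval 2.17 to 3.26, adjusted p = 1.21e-06), and the interval is wider than that of Irf7, with 484 reads in all against 12088. On the log2(FPKM + 1) scale, which compresses low values, it was 0.65 (adjusted p = 0.000341). No gene with a read overlaps Irf4 in the deposited annotation. B cell markers, as another cell type in which Irf4 is abundant, were at or near 0 in every library: Cd79a, Cd79b and Pax5 had 14, 2 and 1 reads under GFP and 9, 16 and 1 under TDP43-NLS, and Ms4a1 was not found among genes with a read.

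Irf5 (ENSMUSG00000029771, chromosome 6, 29526624 to 29541870, plus strand), the factor of inflammatory cytokine genes, was abundant and not called. It had 1375, 1744 and 1661 reads against 1336, 1652 and 1513, or 88.4, 103 and 94.6 CPM under GFP and 90.0, 92.7 and 87.0 CPM under TDP43-NLS. The groups overlapped, with the GFP libraries more spread than the others. The log2 fold change was -0.09 (standard error 0.06, adjusted p = 0.217), and its 95% interval in fold, 0.865 to 1.03, leaves out changes as large as those of Irf3 in either direction. Its end overlaps the end of Tnpo3 on the other strand, which had 115 ± 3.37 and 123 ± 4.26 CPM (SD over 3 libraries per group). The reads of an overlap cannot be assigned without strand.

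Irf1 (ENSMUSG00000018899, chromosome 11, 53660841 to 53669200, plus strand), the activator of the family that inflammatory signals induce, did not pass the test. Its reads were 395, 361 and 425 against 323, 380 and 387, or 25.4, 21.3 and 24.2 CPM under GFP and 21.8, 21.3 and 22.3 CPM under TDP43-NLS. GFP replicate 2 lay among the TDP43-NLS libraries and the other GFP libraries lay above them. The log2 fold change was -0.12 (standard error 0.07, 95% interval in fold 0.825 to 1.03, adjusted p = 0.196). Without GFP replicate 2 it was -0.19 and passed the test (adjusted p = 0.0232), a decrease. The overlapping gene on the other strand, Gm17334, had 0.494 and 0.291 CPM, a small part of the Irf1 signal.

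Irf2 (ENSMUSG00000031627, chromosome 8, 47192767 to 47300493, plus strand), the antagonist of Irf1, had the smallest change. It had 536, 623 and 580 reads against 518, 603 and 603, or 34.5, 36.8 and 33.0 CPM under GFP and 34.9, 33.8 and 34.7 CPM under TDP43-NLS. All TDP43-NLS libraries lay within the range of the GFP libraries. The log2 fold change was -0.01 (standard error 0.06, 95% interval in fold 0.908 to 1.08, adjusted p = 0.871), and its sign turned when GFP replicate 2 or TDP43-NLS replicate 2 was left out (0.030 and 0.0076). The ratio of Irf1 to Irf2 in FPKM was 1.37, 1.08 and 1.36 under GFP and 1.16, 1.17 and 1.19 under TDP43-NLS, so the groups overlapped in the ratio of activator to repressor.

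**Figure D2:**
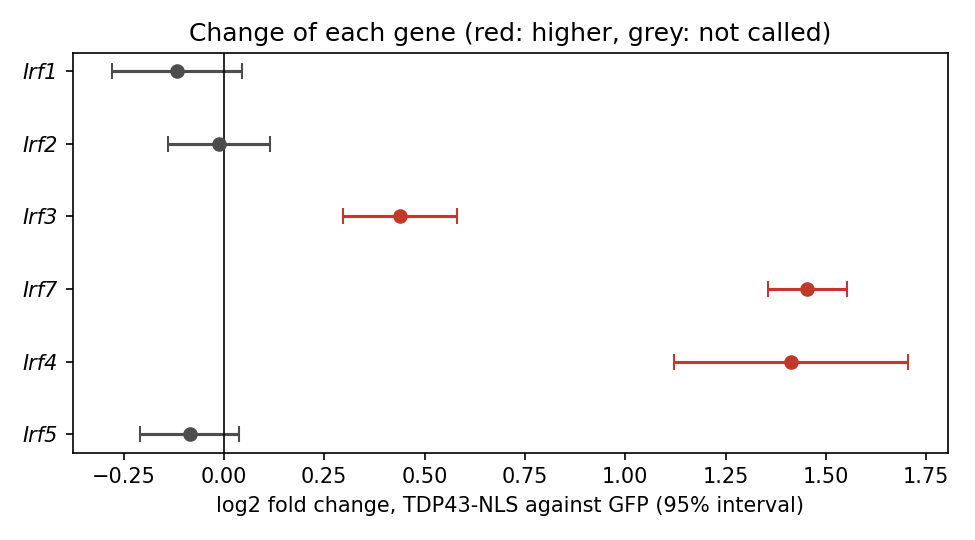
Log2 fold change of each gene, TDP43-NLS against GFP (horizontal axis), with its 95% interval from edgeR's quasi-likelihood fit over 6 libraries; red genes were called higher and grey genes were not called. Irf7 (1.45) and Irf4 (1.41) lie together, Irf3 (0.44) lies between them and zero, and the intervals of Irf1, Irf2 and Irf5 include zero.

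Compared per length, the order of the 6 genes changed at the top. In the GFP group Irf5 was first, at 33.3 ± 2.62 FPKM, and Irf7 was next, at 17.3 ± 0.577 FPKM (SD over 3 libraries per group). In the TDP43-NLS group Irf7 was first, at 46.3 ± 1.16 FPKM, and Irf5 was next, at 30.6 ± 1.01 FPKM. The order below was the same in both groups: Irf3 at 7.68 ± 0.419 and 10.2 ± 0.554 FPKM, Irf1 at 6.02 ± 0.522 and 5.41 ± 0.110 FPKM, Irf2 at 4.76 ± 0.272 and 4.60 ± 0.0652 FPKM, and Irf4 at 0.544 ± 0.0787 and 1.42 ± 0.0218 FPKM. Neighbours in this order did not overlap between libraries in either group. The mean level of Irf7 was above that of 74.4% of tested genes in the GFP group and of 91.0% in the TDP43-NLS group, and that of Irf4 above 10.9% and 21.8%.

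As a share of the summed FPKM of the 6 genes, Irf7 went from 24.9% ± 1.32 to 47.0% ± 0.467 and Irf5 from 47.7% ± 2.82 to 31.0% ± 0.459 (SD over 3 libraries per group). The sum itself was 69.6 ± 1.39 FPKM in the GFP group and 98.5 ± 2.37 FPKM under TDP43-NLS. The share of Irf5 was lower with its own level not called, since a share moves with the other genes. The ratio of Irf4 to Irf5, which compete for Myd88, was 0.0177, 0.0129 and 0.0189 under GFP and 0.0470, 0.0441 and 0.0482 under TDP43-NLS. The groups did not overlap, and Irf4 was a small fraction of Irf5 in all 6 libraries.

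**Figure D3:**
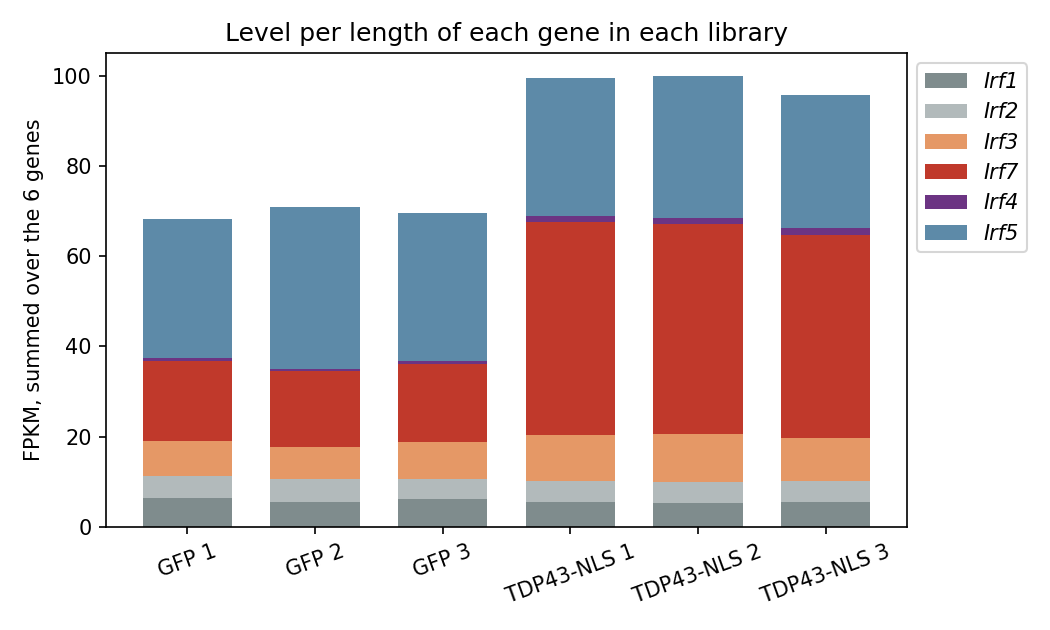
Stacked FPKM of the 6 genes (vertical axis, from 0) in each library; each colour is a gene. The taller stacks of the TDP43-NLS libraries (98.5 against 69.6 FPKM on average) come mostly from Irf7, while the Irf5 layer keeps nearly the same height.

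Irf8 and Irf9, further genes of the family, were tested too. Irf8, a factor of myeloid identity, was slightly lower, at 120 ± 1.23 and 104 ± 1.78 CPM (SD over 3 libraries per group, log2 difference -0.21, standard error 0.04, adjusted p = 0.000563), a call lost against a log2 fold change of 0.5. Irf9, the DNA-binding part of the complex that type I interferon activates, had 60.8 ± 2.72 and 64.4 ± 2.38 CPM and was not called (log2 fold change 0.08, adjusted p = 0.191).

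For each gene the 3 tested genes with the most similar pattern were found, by the root mean square difference of log2 CPM centred on each gene's mean over the 6 libraries. For Irf7 these were C3ar1, a complement receptor, Oas1g, of the family of nucleic acid sensing synthetases, and Adgre1, the macrophage marker F4/80, with differences of 0.033, 0.046 and 0.048. For Irf3 they were Phf11a, Ccdc181 and Mdm1 (0.022, 0.024 and 0.030), and for Irf4 Calr3, Otub2 and Ublcp1 (0.059, 0.066 and 0.076). Those of Irf1 were Polr1d, Atp6v0b and Ptrh2, those of Irf2 Washc5, Cops2 and Nt5c3, and those of Irf5 Exoc4, Pikfyve and Pomgnt2, all within 0.022. With 2 groups, such likeness is mostly the size of the group difference.

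Upstream of the family, genes moved in both directions. Of 14 tested sensors and adaptors 6 rose and 7 fell (median log2 fold change -0.02, against 0.0027 over all tested genes, of which 29.3% rose and 28.2% fell). Ticam1, the adaptor TRIF, through which Toll-like receptors reach Irf3, rose by 0.98 on the log2 scale. The viral RNA sensor Ifih1, itself an interferon-induced gene, had 557 and 56 reads and fell by 3.31, while Cgas, the DNA sensor, fell by 0.70. Myd88, the adaptor of Irf5 and Irf7, fell by 0.60. Of 13 kinases and ubiquitin ligases that act on the factors 6 rose and 3 fell (median 0.13). Ikbke, which phosphorylates Irf3 and Irf7, rose from 42.8 ± 2.17 to 83.6 ± 4.51 CPM (SD over 3 libraries per group, log2 difference 0.96) and Ikbkb, which phosphorylates Irf5, rose by 0.34. Peli1, a ubiquitin ligase of Toll-like receptor signalling, fell by 0.53 and Irak1 by 0.33. Adjusted p-values of the called pathway genes named here and below were at most 0.00933 (Klf4) in edgeR's quasi-likelihood test. Against a log2 fold change of 0.5, the sensors had 2 higher and 3 lower and the kinases 1 higher and 0 lower.

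Cofactors of the family were more often lower than higher: of 9 tested, 2 rose and 6 fell (22.2% and 66.7%, median log2 fold change -0.23). Among all tested genes 29.3% rose and 28.2% fell. Irf2bpl, of the family of proteins that bind Irf2, rose by 0.93, while Irf2bp1 and Irf2bp2 of that family fell (log2 fold change -0.48 and -0.39). Crebbp, a histone acetyltransferase recruited by Irf3, fell by 0.38, Spi1, the factor PU.1 that brings Irf4 to composite elements, by 0.23, and Batf3, a partner of Irf4 on other composite elements, by 0.82. Against a log2 fold change of 0.5 only 1 cofactor rose and 1 fell, where 1221 and 744 of the 13199 tested genes did.

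Type I interferon RNA was hardly seen. Ifnb1, the gene for interferon beta and a direct target of Irf3 and Irf7, had 4 reads under GFP and 4 under TDP43-NLS, and Ifna1, Ifna2, Ifna4 and Ifng were not found by name among genes with a read. A difference in Ifnb1 was not detectable at this depth. Of 9 tested genes for interferon ligands, receptors and JAK-STAT transducers 3 rose and 3 fell (33.3% each, median -0.05). These shares were near those over all tested genes, 29.3% higher and 28.2% lower. Stat2, a subunit of the complex with Irf9, rose from 31.5 ± 3.20 to 47.1 ± 2.30 CPM (SD over 3 libraries per group, log2 difference 0.59). The receptor chains Ifnar2 and Ifngr2 fell by 0.43 and 0.36, and the kinase Jak1 rose by 0.24. Against a log2 fold change of 0.5 the list had 0 called in either direction.

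Genes known as targets of the family were mostly higher. Of 23 tested targets of Irf3, Irf7 and the complex of Irf9 with STAT proteins, 16 rose and 4 fell (69.6% and 17.4%, median log2 fold change 0.44). Over all tested genes 29.3% rose and 28.2% fell, and the lists were chosen with earlier results of these data known. Bst2, which tethers budding viruses, rose from 106 ± 13.8 to 328 ± 11.6 CPM (SD over 3 libraries per group, log2 difference 1.62), and the RNA-sensing synthetase genes Oas3 and Oasl2 rose by 1.07 and 0.91. Cmpk2, a mitochondrial nucleotide kinase, went the other way and fell by 1.10. Of 18 tested targets of Irf1, 12 rose and 1 fell (66.7% and 5.56%, median 0.59), while Irf1 itself was not called. Gbp3, a guanylate-binding protein, rose by 1.63, B2m by 0.72, Nlrc5 by 0.71 and Nos2 by 9.79, from 12 reads in the GFP group to 10930. Many of these genes also answer to NF-kB or STAT proteins, so the lists are not specific to a family member. Against a log2 fold change of 0.5, the first list had 9 higher and 3 lower and the list of Irf1 targets 6 higher and 1 lower.

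The response element is shown for the called pathway genes named above whose window holds it. It occurred in 7 of 15 targets of Irf3, Irf7 and the Irf9 complex that have a window and in 7 of 16 targets of Irf1, against 3.46% of all 27025 genes with a window. The targets were listed as known responders, so a high share is what the choice of list brings. In these lines (GRCm38.p6) capitals mark the core, which reads GAAA, any 2 bases, GAAA, or its reverse complement. In Bst2 and in Gbp3 a pair of cores overlap and form 1 longer run of capitals.
Oas3 (chr5:120777705-120777754, minus strand): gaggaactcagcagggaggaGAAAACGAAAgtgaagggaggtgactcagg
Bst2 (chr8:71537573-71537622, minus strand): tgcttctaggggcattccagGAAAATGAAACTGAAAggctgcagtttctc
Gbp3 (chr3:142559979-142560028, plus strand): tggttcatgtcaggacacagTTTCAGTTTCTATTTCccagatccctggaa
B2m (chr2:122147528-122147577, plus strand): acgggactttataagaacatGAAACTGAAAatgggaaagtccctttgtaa
Stat2 (chr10:128270256-128270305, plus strand): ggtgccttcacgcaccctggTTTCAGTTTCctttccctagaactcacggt
Myd88 (chr9:119340029-119340078, minus strand): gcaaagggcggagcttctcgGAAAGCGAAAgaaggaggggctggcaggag
The first 5 of these genes rose and Myd88 fell. Isg15, Ifit1, Ifit3, Rsad2, Cxcl10, Irgm1 and Igtp, listed genes that also hold the core, rose too. Gbp2 and Socs1 hold it as well and were not called. Among the tested list genes with the core, Myd88 was the only gene that fell.

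Targets of Irf5 in macrophages had the highest median change of the 8 pathway lists plotted by gene, while Irf5 was not called. The lists were chosen with earlier results of these data known, so this order is no independent result. Of 7 tested, 6 rose and 0 fell, with a median log2 fold change of 3.07. Over all tested genes 29.3% rose and 28.2% fell. Like the target lists above, this list is not specific to a family member. Ccl4 and Ccl3, chemokines for monocytes and lymphocytes, rose by 2.46 and 1.78, Tnf by 3.07 and Cxcl2, a neutrophil chemokine, by 6.81 from 7 reads in the GFP group. P2rx4, an ATP-gated channel linked to Irf5 in microglia, had 51.1 ± 1.83 and 52.4 ± 2.04 CPM (SD over 3 libraries per group) and was not called (log2 fold change 0.04, adjusted p = 0.569). Genes of alternative activation linked to Irf4 moved in both directions: of 5 tested among 11 listed, 2 rose and 3 fell (median -0.55). Whether Irf4 acts on them here was not tested. Mrc1, the mannose receptor, fell by 3.38, with 64.4 ± 1.52 CPM under GFP and 6.20 ± 1.03 CPM under TDP43-NLS, and Klf4 by 0.55, whereas Myc rose by 1.90 and Kdm6b, the histone demethylase upstream of Irf4, by 0.92. Arg1, Ccl17, Ccl22 and Ccl24, other genes of that state, had at most 14 reads in a group and were not tested.

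**Figure D4:**
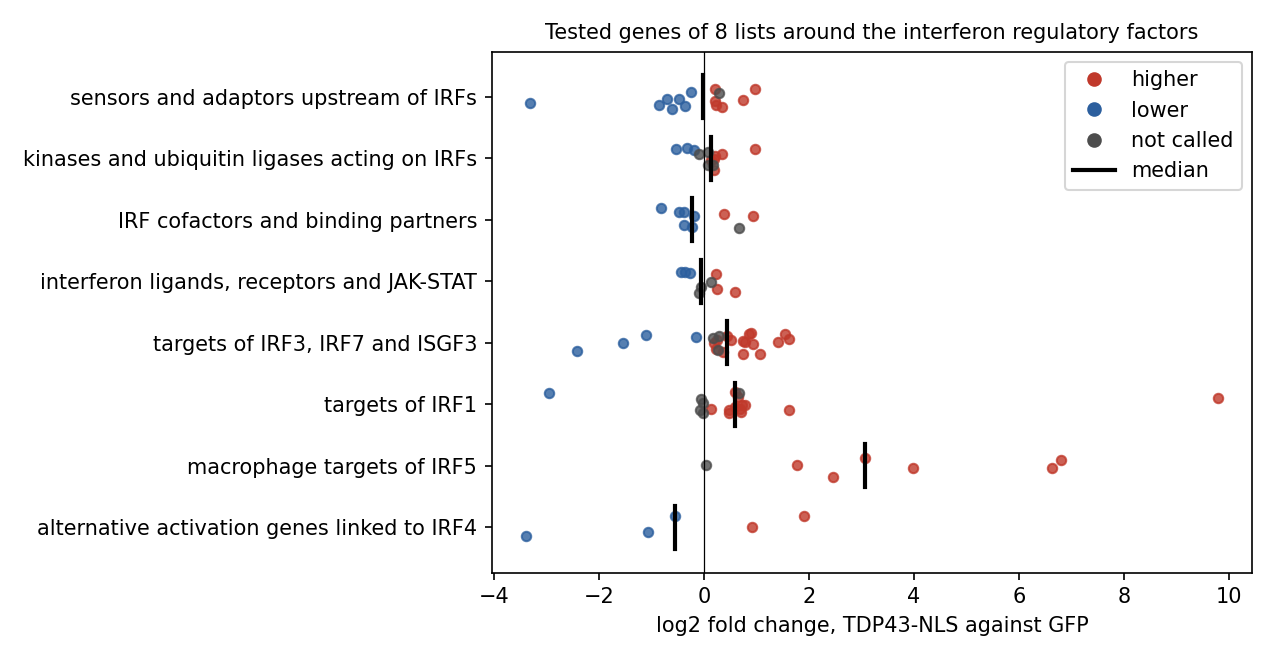
Log2 fold change (horizontal axis) of each tested gene of 8 lists around the family, with called genes in red (higher) and blue (lower), other genes in grey and the list's median as a black bar. The medians of the target lists of Irf3 with Irf7 (0.44), of Irf1 (0.59) and of Irf5 (3.07) lie to the right of zero, and those of upstream sensors (-0.02) and cofactors (-0.23) do not.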

How the data were processed

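RNA from 6 libraries of BV2 cells was compared, 3 per group by GEO's labels. The deposited counts are whole reads per gene (55359 genes, 25032 with a read), and the deposited FPKM values are per length and depth. FPKM was the same rescaling of the counts in every library, so it is no independent measurement. HISAT2 2.1.0, HTSeq 0.6.0 and Bowtie2 2.2.3 with GRCm39 are listed, without roles, per the submitters' processing notes. The use of strand and the handling of reads matching several genes are not given in the sources used here, so overlapping genes and the Oas, Gbp and Ifit families are uncertain.

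Counts were tested with edgeR 4.0.16 (R 4.3.3): filterByExpr at 10 reads and 15 in total, TMM scaling, the quasi-likelihood test on group, two-sided, Benjamini-Hochberg adjustment over 13199 genes. Genes with an adjusted p under 0.05 are called. CPM are counts scaled to the TMM-adjusted library size. A standard error is the log2 fold change over the square root of F. Alternatives used DESeq2 1.42.0, limma 3.58.1, other scaling, no filter, a replicate block and each library left out. In simulated data with 50 genes changed at each size, the test recovered 74% at 1.25-fold, 88% at 1.5-fold and 100% at 2-fold. It made 14 false calls there, and 0 calls when nothing changed. A far smaller part of the genes changed there than the 57.5% called here, so calling at that rate was not checked.

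Members and lists were chosen with earlier results of these data known. Named were all members, up to 4 called genes per list by smallest adjusted p, the 3 genes most alike, the neighbouring genes, and others by count. Irf8, Irf9, P2rx4, the markers and the untested genes were named for their role or count, after their values were seen. So were Irf2bp1 and Irf2bp2, for their role, and the further list genes with the response element core, for their sequence. Same-numbered libraries did not deviate together. Promoter windows are RefSeq's on GRCm38.p6, without conversion to GRCm39, and were found for 6 of 6 members. Some genes of the lists are not reported here.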

Additional observations from a re-analysis of the deposited data

How the results depend on the processing

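Irf7 and Irf4 kept their direction and their call under all 15 alternatives (log2 fold change 1.37 to 1.48 for Irf7 and 0.65 to 1.53 for Irf4), and Irf3 under all but the test against a log2 fold change of 0.5 (0.44, adjusted p = 1). Irf5 stayed uncalled under all 15 (-0.14 to -0.03). With each library left out in turn, Irf1 ran from -0.19 to -0.066 and passed the test only without GFP replicate 2, and Irf2 ran from -0.052 to 0.030, uncalled throughout. The cause was not tested. Against a log2 fold change of 0.5, genes called higher fell from 3865 to 1221 and lower from 3723 to 744, and list genes called higher from 53 to 27 and lower from 28 to 9. The Irf4-linked list then had 1 lower in place of 3, and Irf8 was not called. Replicate numbers did not pair the libraries: deviations from the group means of same-numbered libraries correlated at -0.0088, -0.0022 and -0.011 over genes, and no library correlated best with its own number. With the replicate block 3848 genes were higher and 3679 lower, and no member's call changed. Scaling moved the median of all genes by under 0.1. Among the members, depth limits Irf4 most, with 484 reads in all. Ifnb1, with 4 reads in each group, and other genes with few reads were not tested.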

Other observations

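The surroundings of the members on the chromosome were measured as well. Within 500 kb of Irf7, 33 other genes were tested, of which 15 rose and 5 fell (median log2 fold change 0.18), and within 500 kb of Irf3 there were 44, of which 15 rose and 10 fell (median 0.14). On chromosome 7, which holds both members, 32.2% of tested genes rose and 22.4% fell. The changes of the members themselves were 1.45 for Irf7 and 0.44 for Irf3. Around Irf4 there were 3 tested genes, of which 0 rose and 2 fell (median -0.29), on a chromosome whose tested genes had a median of -0.12, so Irf4 went against its neighbours. Of tested genes on that chromosome 17.5% rose and 37.1% fell. Near Irf2, which was not called, 3 of 5 tested genes rose (median 0.39), against 34.7% of tested genes on chromosome 8. Near Irf5, also not called, 6 of 10 rose and 0 fell, against 33.1% and 23.0% on chromosome 6. Near Irf1, not called either, 5 of 14 rose and 3 fell, against 32.2% and 26.5% on chromosome 11. Gm16675, a gene on the other strand whose start lies 216 bases before that of Irf2, rose from 2.22 ± 0.140 to 3.40 ± 0.740 CPM (SD over 3 libraries per group, log2 difference 0.60, standard error 0.19, adjusted p = 0.0145 in edgeR's quasi-likelihood test).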
